A study of Mus musculus with 3 samples.

Results

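The cytosolic ribosomal protein genes encode the proteins of the small and large subunits of the ribosome that translates nuclear-encoded messages. They were chosen by gene symbol (Rpl, Rps or Rplp followed by a number, with a short suffix allowed, and Rpsa) among RefSeq protein-coding genes on chromosomes 1 to 19, X and Y. The ribosomal S6 kinases were left out. Of 21883 such genes 84 were members, with 32 in the small subunit, 49 in the large subunit and 3 in the stalk of the large subunit. The rule used no measured value, but the members were chosen with earlier results of these data known.

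FOXF1, a forkhead transcription factor of the lung mesenchyme and endothelium, was profiled by ChIP-seq, which sequences the DNA fragments that an antibody to the factor pulls down, in the whole lungs of C57BL/6 mouse embryos at embryonic day 18.5. No mutant or treatment is named in the labels. There were 2 biological replicates, each made from a pool of 3 lungs, which were fixed in 1% formaldehyde, digested with micrococcal nuclease and sonicated, and the antibody (7 µg) was added to 10 µg of chromatin. A 2% input of the same stage was the control for peak calling. Since the whole organ was used, FOXF1-expressing cells and other cells were not separated, and a list of summits cannot check the tissue against marker expression.

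The ribosome is built from ribosomal RNA and one copy of most ribosomal proteins, so the genes for these proteins are transcribed at high and balanced levels in growing cells. Their promoters are compact, often carry sites for ETS and YY1 factors, and start transcription inside a run of pyrimidines. That run, the terminal oligopyrimidine tract, lets growth signals set how fast the messages are translated. In the embryonic lung, as in other growing organs, these genes belong to the housekeeping programme of all cell types.

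Each replicate was deposited as a list of peak summits, single bases with a −log10 significance score, and held 107388 summits in replicate 1 and 61178 in replicate 2. Summits were joined into a shared site, 1 from each replicate, where they were each other's nearest and at most 100 bp apart. It was placed midway between them. There were 51013 shared sites, and a gene was given a site when one lay within 5 kb of either end of the gene. The score grows with sequencing depth, which is unknown here, so each summit was also ranked in its own list as the percentage of summits that scored at or below it. No test was run on the members, because they were chosen with earlier results of these data known. Nor do 2 replicates without a contrast between conditions leave any to run.

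A shared FOXF1 site lay within 5 kb of 71 of the 84 ribosomal protein genes (84.5%). Over all protein-coding genes the share was 54.3%. The members are short, with a median length of 3179 bp against 17170 bp, so the 5 kb windows at their ends overlap more and cover less sequence. The share was 25 of 32 (78.1%) for the small subunit and 43 of 49 (87.8%) for the large subunit, and all 3 stalk genes had a site. Together 102 distinct shared sites lay near members, 4 of which were counted at a pair of neighbouring members. In 43 members there was 1 site, in 21 there were 2 and in 7 there were 3. Members with 2 or more sites made up 33.3%, and all protein-coding genes 21.8%.

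The highest sites of the members were mostly of middle to high rank, and few were among the highest of the lung. The highest site of a member, taken as the one with the highest mean of both ranks, had a median rank of 79.7% in replicate 1 and 82.0% in replicate 2. Over all genes with a site these medians were 76.5% and 71.7%. The middle of the distribution was narrow: the mean rank ran from 73.7% at the lower quartile to 86.8% at the upper quartile for members, and from 57.7% to 85.1% for all genes with a site. Both ranks were above 50% in 69 members. With at least 50% asked of both summits, 82.1% of members had a site, against 41.2% of all genes. Both were above 90% in 4 members, or 4.76% of them, close to the 5.96% of all genes.

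With pairing limited to each replicate's 10000 top-scoring summits, 5 members (5.95%) kept a site, where all protein-coding genes had 7.01%. Rplp0, Rpl27a, Rpl3 and Rpl13a were among them. Rpl13a kept its highest site, which lay more than 1 kb from its start, and not the site at its start. With a rank of at least 75% asked of both summits, 53.6% of ribosomal protein genes still had a site, compared with 21.8% of all genes and 28.2% of the 78 mitochondrial ribosomal protein genes, whose products work in the separate ribosome of mitochondria. At a least rank of 90% the 3 shares were 4.76%, 5.97% and 5.13%.

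**Figure D1:**
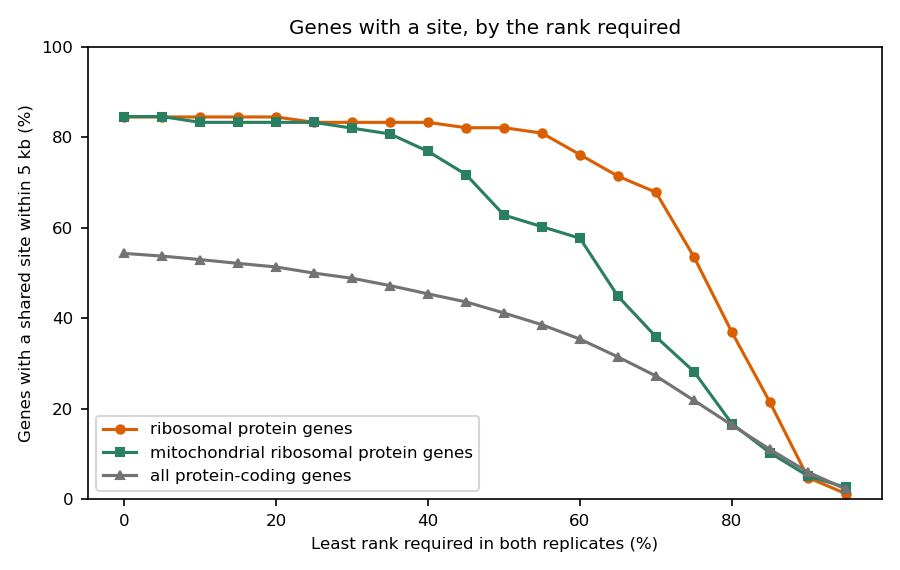
The share of genes with a shared site within 5 kb (y axis, %) is plotted against the least rank asked of both summits (x axis, %) for ribosomal protein genes (circles), mitochondrial ribosomal protein genes (squares) and all protein-coding genes (triangles). Cytosolic and mitochondrial ribosomal protein genes start at 84.5% and 84.6%, separate from a rank of about 40% on, and all 3 lines come together at 90%.

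Rplp0 led the family. It encodes the scaffold protein of the stalk, which recruits the elongation factors to the ribosome. Its site scored 135.1 in replicate 1 and 78.7 in replicate 2, ranks of 96.7% and 96.3%, with both summits on the same base, chromosome 5 position 115559391, 76 bp upstream of the annotated start. The promoter of Rplp0 holds a forkhead core, the short word that FOX factors prefer, close to that summit. Of the other members, Rpl31, a large-subunit protein at the exit of the peptide tunnel, had its site nearest to such a word, and Rps2, of the small subunit near the message entry, was the only other member with both a site and a word in its promoter window. Their sequences are shown because they are the 3 members in which a site and a forkhead word fall in the same window. They come from RefSeq promoters on GRCm38.p6, each written 5′ to 3′ on the strand of the gene, with the forkhead word in capitals. Rplp0 is at chr5:115559217-115559496, plus strand, Rpl31 at chr1:39367601-39367880, plus strand, and Rps2 at chr17:24719873-24719952, plus strand.
Rplp0: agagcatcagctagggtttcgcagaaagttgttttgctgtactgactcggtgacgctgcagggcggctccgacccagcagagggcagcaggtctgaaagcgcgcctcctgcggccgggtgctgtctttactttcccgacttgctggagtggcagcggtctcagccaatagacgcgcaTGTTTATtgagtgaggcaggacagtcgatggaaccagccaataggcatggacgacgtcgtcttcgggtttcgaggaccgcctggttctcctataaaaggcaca
Rpl31: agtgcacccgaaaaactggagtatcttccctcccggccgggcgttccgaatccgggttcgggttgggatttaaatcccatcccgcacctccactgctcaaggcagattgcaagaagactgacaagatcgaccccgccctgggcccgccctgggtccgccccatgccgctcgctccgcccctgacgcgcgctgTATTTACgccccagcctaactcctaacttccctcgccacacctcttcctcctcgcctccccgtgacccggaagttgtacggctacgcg
Rps2: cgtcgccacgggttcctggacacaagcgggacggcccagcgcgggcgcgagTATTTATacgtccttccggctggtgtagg

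In Rpl31 the centre of the forkhead word lay 2 bp from the site, in Rplp0 6 bp and in Rps2 47 bp. Over the 410 protein-coding genes with a word and a site in 1 promoter window, the median distance was 45.5 bp and 22.7% lay within 10 bp. The Rpl31 site, 53 bp upstream of the start, scored 70.7 in replicate 1 and 38.8 in replicate 2, with its 2 summits 46 bp apart.

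The forkhead word was not frequent in the family. It was searched on both strands as the letters TGTTTAC, as the variant ending in T that stands in Rplp0 (TGTTTAT), as the variant that stands in Rpl31 (TATTTAC) and as the variant that stands in Rps2 (TATTTAT), over the 300 bases from 250 before the start on, in the 64 members matched to a RefSeq promoter by symbol. A word was found in 9 of 64 members (14.1%), which were Rpl10l, Rpl19, Rpl24, Rpl31, Rpl32l, Rpl41, Rplp0, Rps2 and Rps26. All protein-coding promoters held one in 14.7% and those with a shared site within 1 kb of the start in 10.4%. Among members with such a site 5 of 48 (10.4%) had a word, and among members without one 4 of 16 (25%). A match is a description of the letters and not of binding, and no match says only that these letters are not in the window.

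The words known from ribosomal protein promoters differed more in share. The ETS word CCGGAAG was found in 26 of 64 members (40.6%), against 12.9% of all promoters and 21.6% of promoters with a site at the start. A pyrimidine run, here at least 5 pyrimidines beginning within 5 bases of the start, was found in 27 members (42.2%), against 25% and 26.6%. The YY1 word AAGATGGC was found in 6 members (9.38%), against 3.57% and 5.66%. In the other direction, the NFY word CCAAT was found in 29.7% of members and 42.3% of all promoters. GC content was similar, with medians of 56.8% in members and 56.3% in all promoters, and 61.3% in promoters with a site at the start.

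Among members with a shared site within 1 kb of the start 17 of 48 (35.4%) held the ETS word, and among members without one 9 of 16 (56.25%). For the pyrimidine run the counts were 22 of 48 (45.8%) and 5 of 16 (31.25%).

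The promoter of Rps6 is shown as an example that holds the ETS word and the pyrimidine run, without the YY1 word, and has a site of high rank. Rps6 is the small-subunit protein that S6 kinases phosphorylate when cells grow. Its site scored 85.2 in replicate 1 and 57.0 in replicate 2, both summits on the same base 17 bp downstream of the start. The ETS word in capitals stands upstream of it. The printed window is at chr4:86857338-86857617, minus strand, RefSeq on GRCm38.p6.
Rps6: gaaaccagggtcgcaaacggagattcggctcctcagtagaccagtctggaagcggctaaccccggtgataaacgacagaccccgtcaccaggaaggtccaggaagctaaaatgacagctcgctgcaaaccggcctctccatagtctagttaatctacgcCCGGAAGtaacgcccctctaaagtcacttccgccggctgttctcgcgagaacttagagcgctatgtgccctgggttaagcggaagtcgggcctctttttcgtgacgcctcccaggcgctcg

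The start regions of 4 members of the highest ranks that have a pyrimidine run show how the run sits. Those of 2 paralogues without a summit within 5 kb are given beside them. Rpl32l, another such paralogue, also has a run and is not shown. Each region shown covers 20 bases before the start to 29 after it, from the same RefSeq table and build, with the run in capitals. Rpl27a is at chr7:109519175-109519224, plus strand, Rps6 at chr4:86857338-86857387, minus strand, and Rps27 at chr3:90213619-90213668, minus strand. Rpl13a is at chr7:45128716-45128765, minus strand, Rpl39l at chr16:10170208-10170257, plus strand, and Rpl10l, which has no run, at chr12:66284372-66284421, minus strand.
Rpl27a: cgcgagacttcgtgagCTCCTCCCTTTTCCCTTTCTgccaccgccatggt
Rps6: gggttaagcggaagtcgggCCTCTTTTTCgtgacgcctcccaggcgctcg
Rps27: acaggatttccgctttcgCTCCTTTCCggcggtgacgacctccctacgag
Rpl13a: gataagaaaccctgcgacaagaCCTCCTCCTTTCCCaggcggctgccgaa
Rpl39l: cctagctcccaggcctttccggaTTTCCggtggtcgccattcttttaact
Rpl10l: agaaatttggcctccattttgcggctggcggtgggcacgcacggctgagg

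**Figure D2:**
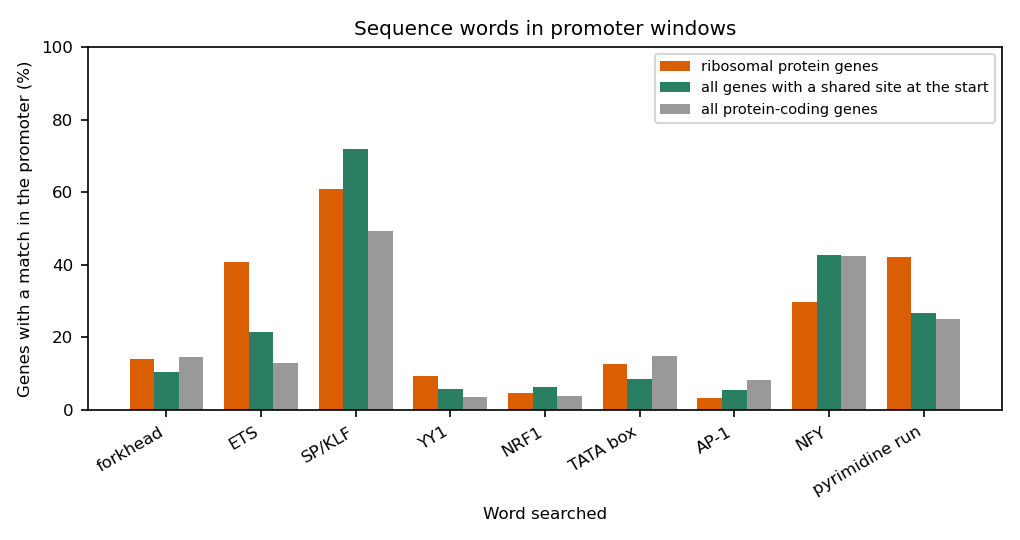
The share of genes with a match (y axis, %) is shown for each word searched (x axis) in the 64 ribosomal protein genes matched to a promoter, in the 7539 genes with a shared site within 1 kb of the start and in all 17491 protein-coding genes with a promoter. The ETS word and the pyrimidine run are highest in the ribosomal protein genes (40.6% and 42.2%), and the forkhead word is at 14.1%, 10.4% and 14.7%.

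Most members with an annotated start had a shared site close to it. Of the 64 members with an annotated start, 48 (75%) had a shared site within 1 kb of it, against 43.1% of all protein-coding genes. The same 48 lay within 500 bp, and 47 lay within 250 bp. Their median position was 36.5 bp downstream of the start, with quartiles at 2.25 and 61 bp, and the range ran from -326 bp at Rps21 to 202 bp at Rpl27. Downstream sites numbered 36 of 48 (75%), where all genes with such a site had 63.7% and a median of 31 bp. These 48 leave out most members whose summits stood on opposite sides of the start. Over the 60 members with a summit within 1 kb, the nearest one was downstream in 60% in replicate 1 and 71.7% in replicate 2, and over all genes with such a summit in 56.3% and 64.4%. Of the 48 members, 34 (70.8%) had the site between 1 and 110 bp downstream, compared with 50.1% of all genes with a shared site within 1 kb. The 110 bp limit was not among the planned settings, so this contrast is descriptive only.

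**Figure D3:**
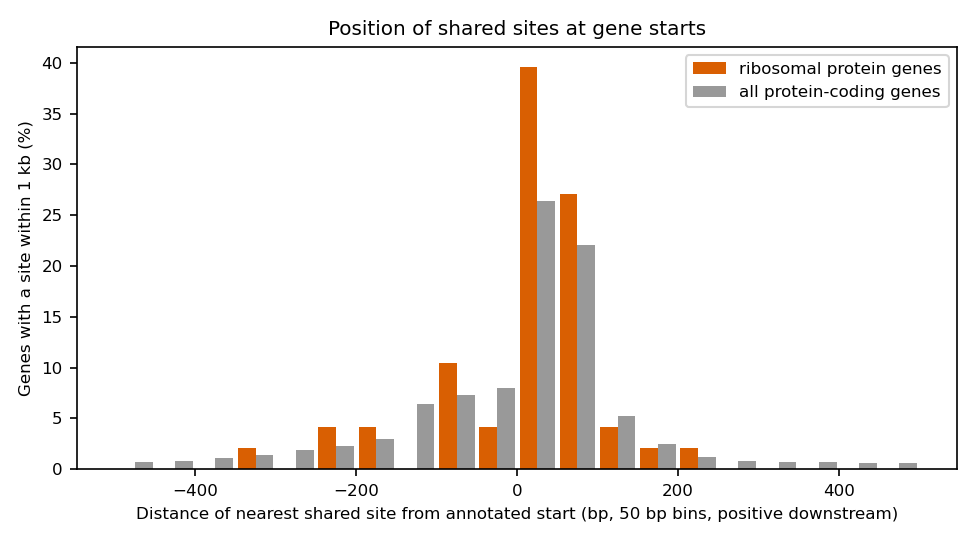
The distance of the nearest shared site from the annotated start (x axis, bp, 50 bp bins, positive downstream, shown to 500 bp on each side) is plotted as the percentage of genes with a site within 1 kb (y axis) for the 48 ribosomal protein genes and for all 7539 genes. Both peak in the bins just downstream of the start, and 75% of the ribosomal protein genes and 63.7% of all genes lie downstream.

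Behind Rplp0, the highest sites belonged to genes of both subunits. Rpl27a, a large-subunit protein, had a site 241 bp upstream of its start that scored 102.0 in replicate 1 and 68.6 in replicate 2. Rpl3, which reaches toward the peptidyl transferase centre, scored 87.1 and 64.2 at a site 66 bp from its nearer gene end. Rps9, a small-subunit protein of early assembly, scored 82.9 and 59.8 at a site 8 bp downstream of the start. All of these ranked above 89% in both lists.

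Rps27, a zinc-binding small-subunit protein, scored 83.1 in replicate 1 and 58.0 in replicate 2, with its site 37 bp downstream of the start. Rps13, of the small subunit, scored 71.5 and 55.3 at 97 bp downstream. In both genes the summits of the replicates were no more than 2 bp apart.

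Rpl13a is a large-subunit protein that also leaves the ribosome to silence inflammatory messages. The site at its start, 40 bp downstream, scored 72.9 in replicate 1 and 53.3 in replicate 2, above 87% in both lists. Its summits in the replicates were 8 bp apart.

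The stalk genes all had sites. Rplp1 and Rplp2 encode the acidic proteins that hang from Rplp0 and stimulate the elongation factors. Rplp1 scored 68.3 in replicate 1 and 42.8 in replicate 2 at a site 159 bp from its nearer gene end. Rplp2 had 3 sites: the one 35 bp downstream of its start scored 53.8 and 40.0, and the highest, 67.2 and 49.4, lay 7602 bp downstream and only 65 bp from Pnpla2. The stalk genes thus ranged from the top of the family to its middle.

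Rpl5 and Rpl11, which carry the 5S ribosomal RNA and can bind and block the p53 ligase Mdm2, were lower. Rpl5 scored 42.7 in replicate 1 and 29.9 in replicate 2 at 76 bp downstream of the start. Rpl11 scored 28.1 and 19.6 at 43 bp downstream, ranks of 61.1% and 54.1%, which placed it among the 4 members with the lowest mean rank.

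Mutations of several members cause Diamond-Blackfan anaemia, an inherited failure of red cell production. Rps19, the gene most often mutated, scored 73.7 in replicate 1 and 53.3 in replicate 2, with both summits on 1 base, at -21 bp from its nearest annotated start. Rpl35a scored 53.9 and 46.4 at -3 bp.

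Rps24 had 3 sites, of which the one 10 bp downstream of its nearest start was highest in mean rank and scored 31.8 and 23.5. Rps26, Rps7 and Rps10 had no shared site. Each of those 3 had a summit of each replicate near the start, farther apart than the 100 bp limit, as described below.

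The count of 3 sites was also reached at Rpl24, Rpl38 and Rpl27. Rpl24, a large-subunit protein that forms a bridge to the small subunit, had its highest site 154 bp downstream of the start, at 47.5 in replicate 1 and 34.6 in replicate 2. Rpl38, known for its part in the translation of Hox messages during axial patterning, scored 44.1 and 45.6 at a site 40 bp downstream of the start. Rpl27, of the large subunit, had its highest site near the far end of the gene, 3150 bp downstream of the start, where it scored 83.6 and 36.9, while the site 202 bp downstream of its start scored 40.1 and 38.1.

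In 9 members with an annotated start the highest site lay more than 1 kb from it. Besides Rpl13a, Rplp2 and Rpl27 these were Rpl35, Rpl12, Rpl41, Rpl3l, Rps2 and Rpl28. The Rpl35 site, at 65.6 in replicate 1 and 51.8 in replicate 2, lay 2954 bp upstream and 19 bp from Arpc5l. The Rpl12 site, at 46.9 and 40.4, lay 5288 bp downstream, and a second site 12 bp downstream of the start scored 34.8 and 34.6.

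Rps2 had a site at -183 bp from its start that scored 42.4 in replicate 1 and 28.1 in replicate 2. Its highest site, at 38.5 and 31.1, lay 46 bp from Ndufb10. In 13 members the highest site was nearer to an end of another gene than to an end of the member. Starts inside a gene were not counted as ends. The Rpl19 site lay at -97 bp from an annotated start of Rpl19, and the Rpl18 site 61 bp downstream of one of Rpl18. A site within 5 kb could belong to either gene, and distance to the gene ends cannot tell the 2 apart.

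Rps14, Rpl28, Rpl39 and Rpl11 were the lowest. Rps14, the small-subunit protein lost in the 5q- syndrome, had its only shared site 4647 bp from the gene, where replicate 1 scored 36.6 and replicate 2 scored 8.36. Rpl28 had its only shared site 3440 bp upstream, 35 bp from Tmem238, at 18.8 and 14.9. Rpl39, a small protein of the peptide exit tunnel, scored 23.0 and 22.1 at 61 bp downstream of its start.

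For Rpl28 the low values do not describe the start of the gene. For Rps14, which has no annotated start here, they do not describe the summits closest to a gene end. Near the start of Rpl28 stood a replicate 1 summit of 56.4 at -226 bp and a replicate 2 summit of 55.9 at -75 bp, ranks of 81.2% and 90.2%. The gap between them kept them from forming a site. Near an end of Rps14 stood summits of 66.7 in replicate 1, 263 bp away, and 58.3 in replicate 2, 89 bp away.

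**Figure D4:**
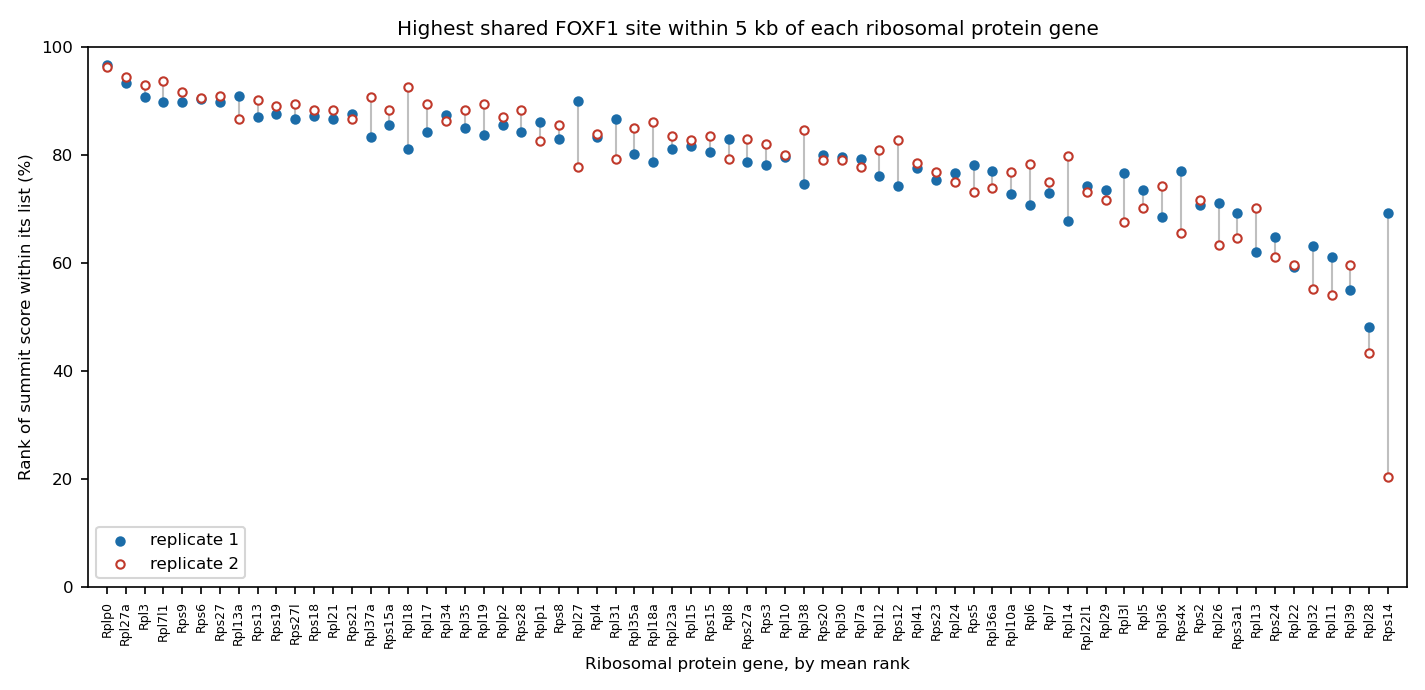
The rank of the highest shared site of each ribosomal protein gene with a site, for the 69 genes plotted, (y axis, percentage of summits in the list that scored at or below it) is shown for replicate 1 (filled) and replicate 2 (open), with genes ordered by mean rank on the x axis. Rplp0 is highest at 96.7% and 96.3%, most genes lie between 70% and 90% in both replicates, and Rps14 has the widest gap, 69.3% against 20.2%.

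The 13 members without a shared site fell into 2 kinds. In 10 of them (Rps7, Rpsa, Rps16, Rps10, Rpl9, Rps26, Rpl23, Rpl37, Rps29 and Rps25) both replicates had a summit within 5 kb, and the nearest summits of the replicates were 104 to 546 bp apart. The other 3 (Rpl10l, Rpl32l and Rpl39l) had no summit of either replicate within 5 kb. Counting a summit of each replicate at any distance apart, 81 of 84 members (96.4%) had one within 5 kb, where all protein-coding genes had 60.7%. Within 1 kb of the annotated start the count was 60 of 64 members (93.8%), against 51.9% of all genes.

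In each replicate, the summit nearest to the start of these 10 genes, or to the gene end for Rps29, ranked between 63.2% and 87.6% of its list. Further summits within 5 kb of Rpl37, Rps7, Rpl23 and Rps16 ranked lower, down to 1.66% at Rpl37 in replicate 2. Rpl23, of the large subunit, had summits of 72.6 in replicate 1 at -63 bp from the start and 48.5 in replicate 2 at 85 bp. Rps26, which contacts the message at the exit channel, had 63.5 at -116 bp and 41.8 at 29 bp. Rpl37, a zinc-binding large-subunit protein, had 73.7 at -64 bp and 40.4 at -232 bp.

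Rps10 and Rpsa, the latter also known as a laminin receptor precursor and mutated in congenital asplenia, followed the same form. Rps10 had summits of 51.3 in replicate 1 at -96 bp and 33.7 in replicate 2 at 40 bp. Rpsa had 47.9 at -78 bp and 40.0 at 27 bp. In these genes the replicate 1 summit stood upstream of the start and the replicate 2 summit downstream.

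Rps7, a small-subunit protein that also binds Mdm2, had the reverse order, with 34.3 in replicate 1 at 43 bp and 26.6 in replicate 2 at -61 bp. Rpl9 had 32.8 at -76 bp and 43.5 at 62 bp. Rps16 had 40.9 at -52 bp and 34.0 at -169 bp, both upstream. Rps25, which helps viral internal ribosome entry sites, had 38.5 at -538 bp and 30.8 at 8 bp. Rps29 had 30.3 in replicate 1 and 30.3 in replicate 2, 143 and 178 bp from its nearer gene end.

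The start sequence of Rps9, where both summits fell on 1 base, and those of Rpsa and Rps16, where they did not, show the difference on the letters. The 5 bases centred on each summit are in capitals, from the RefSeq promoters on GRCm38.p6. Rps9 is at chr7:3703931-3704070, plus strand, with 1 run in capitals. Rpsa is at chr9:120127656-120127795, plus strand, with replicate 1 on the left and replicate 2 on the right. Rps16 is at chr7:28350499-28350718, plus strand, with replicate 2 on the left and replicate 1 on the right.
Rps9: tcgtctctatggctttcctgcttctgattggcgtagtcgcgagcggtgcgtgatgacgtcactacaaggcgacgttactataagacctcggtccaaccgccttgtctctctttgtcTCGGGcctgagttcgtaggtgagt
Rpsa: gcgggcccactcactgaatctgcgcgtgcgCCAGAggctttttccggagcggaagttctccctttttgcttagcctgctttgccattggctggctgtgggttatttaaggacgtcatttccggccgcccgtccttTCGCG
Rps16: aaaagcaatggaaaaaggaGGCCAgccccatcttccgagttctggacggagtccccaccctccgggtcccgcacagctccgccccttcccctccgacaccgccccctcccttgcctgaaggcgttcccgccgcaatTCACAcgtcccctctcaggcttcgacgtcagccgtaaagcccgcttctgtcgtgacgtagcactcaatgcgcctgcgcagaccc

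Displacement of this kind had a similar share in all genes. Of the 60 members with a summit of each replicate within 1 kb of the start, 12 (20%) had them over 100 bp apart, and in all genes the share was 21.2%. The 12 were the 9 members above with an annotated start and no site, and Rpl28, Rpl35 and Rpl41. The summits stood on opposite sides of the start in 11 members (18.3%) and in 17.6% of all genes. Replicate 1 was the upstream one in 9 of the 11, and in 71.1% of such genes overall. Rpl41, which encodes the smallest ribosomal protein, had summits of 83.6 in replicate 1 at -49 bp and 55.3 in replicate 2 at 81 bp, above 90% in both lists, while its only shared site, 1454 bp downstream of the start, scored 48.9 and 37.8.

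**Figure D5:**
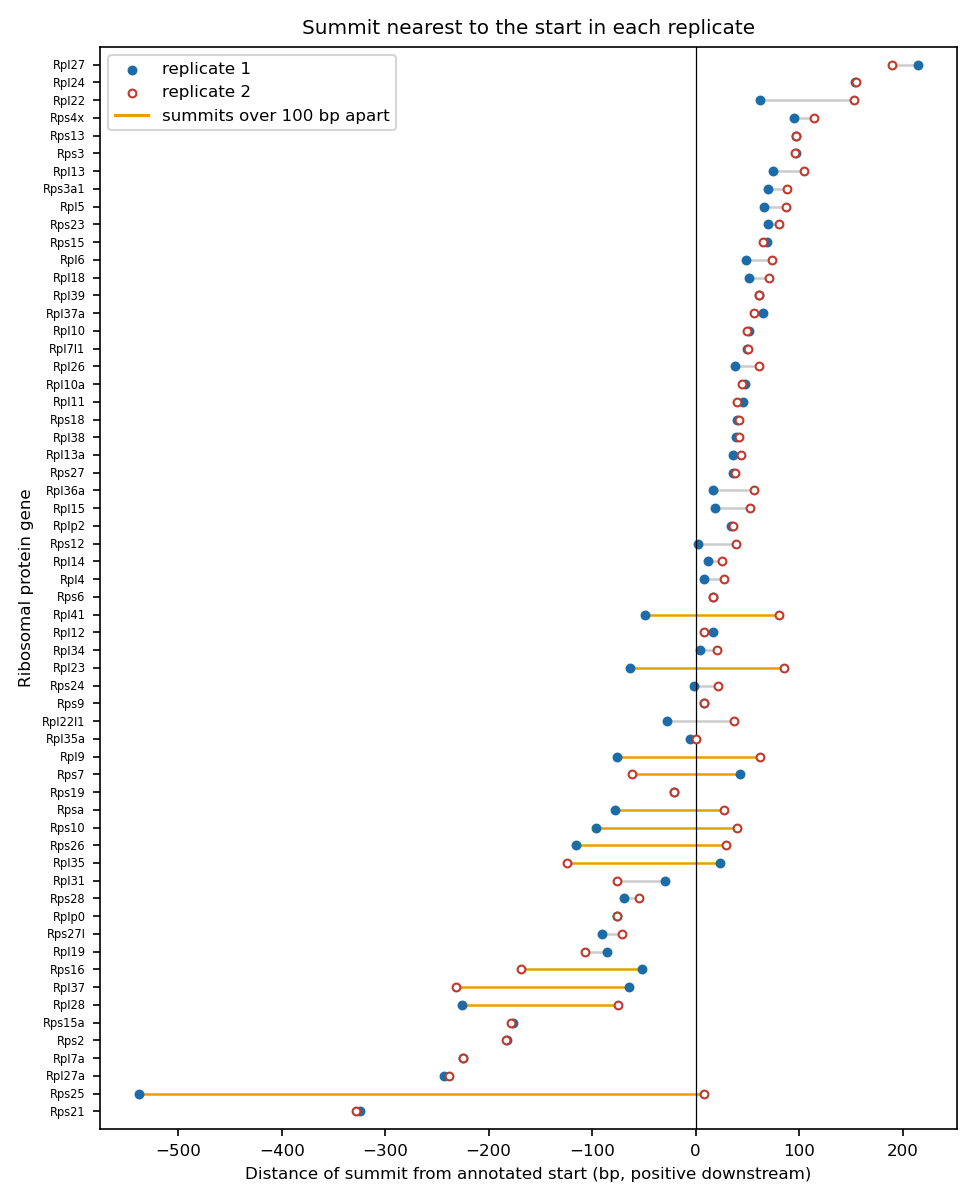
The summit nearest to the annotated start in replicate 1 (filled) and replicate 2 (open) is shown for each of the 60 ribosomal protein genes with both within 1 kb (y axis, genes ordered by mean position), as distance in bp from the start (x axis, positive downstream). Grey lines join summits at most 100 bp apart and yellow lines join the 12 pairs that are farther apart, of which Rps25 is the widest at 546 bp.

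The 2 limits that define a site can be read from the members nearest to them. Rpl22, whose summits were 91 bp apart, was the last pair inside the 100 bp limit, and Rps7, at 104 bp, was the first outside. Rps14, with its site 4647 bp from the gene, was the last inside the 5 kb window, and Rps16, whose nearest shared site lay at 5497 bp, was the first outside.

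The paralogues, genes that arose as copies of other members, were split. Rpl7l1 scored 82.9 in replicate 1 and 65.9 in replicate 2 at 51 bp downstream of its start, among the highest of the family. Rps27l, a p53 target, scored 70.4 and 54.3 at -81 bp from its nearest start. Rpl22l1 scored 43.6 and 32.0 at 4 bp downstream.

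Rpl10l and Rpl39l, which are expressed in the male germ line, and Rpl32l had no summit of either replicate within 5 kb. For Rpl10l the nearest summits were 19610 bp away in replicate 1 and 38051 bp in replicate 2. Rpl3l, the paralogue of striated muscle, had its highest site, of 47.8 in replicate 1 and 27.8 in replicate 2, at 3737 bp downstream of the start and 171 bp from Msrb1. These 4 were the only members of the 64 without summits of both replicates within 1 kb of the start.

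Genes that work with the ribosome had sites about as often. Of the 78 mitochondrial ribosomal protein genes 66 had a shared site (84.6%), with a median mean rank of 69.1% against 80.9% for the cytosolic family. Of 18 elongation factors and other genes with a terminal oligopyrimidine tract 15 had one (83.3%, median 69.8%), and of 24 ribosome assembly genes 20 (83.3%, median 74.7%). All 15 initiation factors had one, with a median of 82.4%. Within these lists Eef1a1, which delivers transfer RNA to the ribosome, scored 111.7 in replicate 1 and 77.8 in replicate 2, and Eef2, which moves the ribosome along, scored 66.2 and 51.4. For scale, the 5 endothelial genes used as a reference list all had a site, at a median rank of 97.4%, and 4 of them kept one among the 10000 highest summits.

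Ribosomal genes that the symbol rule misses gave mixed values. Rpl36al scored 75.9 in replicate 1 and 55.9 in replicate 2 at 153 bp upstream of its start. Fau, a fusion with a small-subunit protein, had its site 1728 bp from the gene. Rack1, a signalling scaffold on the small subunit, had none.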

How the data were processed

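Summit lists of 2 FOXF1 chromatin immunoprecipitation replicates from E18.5 mouse lung were used. Peaks were called with MACS2 on mm10, per the submitters' processing notes, each replicate against the input, per the file headers' peak names. The deposited score is the authors' −log10 significance of a summit, and whether of a p or a q value is not stated. For the aligner, the versions, the options and the read depth, the sources used here give nothing, so no interval is printed. Mitochondrial and unplaced summits were left out. Summits were paired (mutual nearest, at most 100 bp), assigned to genes within 5 kb and ranked within each list with Python 3.11.15, numpy 2.4.6 and pandas 2.3.3. Pairing and assignment were tested on simulated data. Gene ends came from RefSeq on GRCm38, the assembly of mm10, and starts and promoters from RefSeq on GRCm38.p6. Of 84 members 64 matched a promoter, and the other 20 have distances to the nearer gene end. Where a gene has several starts the nearest to a site was used. The members and lists were chosen with earlier results of these data known. Named members were the 12 highest and 4 lowest by mean rank, those with no site, with 3 sites or with the highest site over 1 kb from the start, the stalk, 5S, Diamond-Blackfan and paralogue genes and Rps6; further members named for sequence features or as neighbours were chosen after their values were seen. Alternatives changed the pair distance, window, score minimum and replicates used. Some items are not reported here and were left out of the plot of ranks by gene; they remain in the counts.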

Additional observations from a re-analysis of the deposited data

How the results depend on the processing

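Pairs limited to 50 bp or widened to 250 bp, windows of 1 and 20 kb, a score of at least 10 in both replicates, pairs that need not be mutual, leaving out the paralogues and adding 4 ribosomal genes kept the number of members with a site between 64 and 79 (main value 71), and counting only sites within 5 kb of an annotated start gave 52. Using 1 list alone gave 81 in both cases. Only the 10000 highest summits of each replicate moved it, to 5 members, with 7.01% of all protein-coding genes, 4 sites near members and 2 members with a site at the start. Under that setting the median rank was 91.9% and the median distance to the start turned to -158.5 bp, from those 2 members. A 20 kb window raised the sites near members to 195. The median distance to the start was 17 bp with pairs of at most 250 bp, and from 17 to 38.5 bp when 1 replicate was left out. Requiring only a summit of each replicate, an alternative chosen after seeing the data, gave 81 members. Of 217 single values for the 31 named members with a site, 171 moved by no more than the spread between replicates. A further 13 moved more and 33 had no site left, 26 of these with the 10000 highest summits. The spread was taken from the gene's own 2 ranks. Leaving out 1 replicate cannot exceed it while the same summit stays highest, and an unchanged pair does not move. The count of 171 was thus largely fixed in advance and does not measure stability. No paired analysis was possible because there is no second group of summit lists. Depth is unknown, so the absence of a summit cannot be told apart from too few reads.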

Other observations

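Pseudogenes of the family are mostly copies of ribosomal protein messages scattered over the genome. A shared site lay within 1 kb of 9 of 318 ribosomal pseudogenes (2.83%), against 3.34% of all 10429 pseudogenes. Within 5 kb the shares were 16.7% and 12.6%. Rpl21-ps2 had the highest of the 9, at 120.0 in replicate 1 and 68.6 in replicate 2, 787 bp from the pseudogene and 68321 bp from the nearest protein-coding gene, Ddx1.

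Many ribosomal protein genes host small nucleolar RNAs, which guide the modification of ribosomal RNA, in their introns. A shared site was present at 26 of the 30 members that contain a small nucleolar RNA gene and at 45 of the 54 that do not.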
